A study of Mus musculus with 31 samples.

Results

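Genotype was compared here in alveolar macrophages (AM) of mice that had all inhaled cigarette smoke (CS) for 7 days, by setting the wild type (WT) libraries of that exposure against the RAGE null ones. Membership followed the labels alone, and the comparison took in every WT and every RAGE null library of the 7-day CS exposure, 4 of each (WT-CS and RAGE-CS), which made 8 of the 31 libraries of the series. All mice were male C57BL/6 animals of 8 to 12 weeks at the start of exposure, and CS was given for 2.5 h a day on 7 consecutive days. The WT mice came from a colony started with Jackson animals, whereas the homozygous RAGE null mice, also on a C57BL/6 background, were bred as a colony of their own, so that the missing receptor, any alleles carried with it and differences between colonies cannot be told apart. Cells were washed out of the whole lung and were not sorted, and 1 library was made per mouse from poly(A) RNA and read as single 50-base reads. A value is the number of reads the authors counted for a gene, and levels are given as CPM, the counts scaled to a common library total with TMM factors.

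RAGE, the product of Ager, is a pattern recognition receptor of the immunoglobulin family that binds advanced glycation end-products, S100 proteins and HMGB1, and its best known signal runs through NF-kB to inflammatory genes. In the lung it is most abundant on type 1 alveolar epithelial cells. AM are the resident phagocytes of the airspace, take up inhaled particles and surfactant, and answer oxidants in smoke through the transcription factor Nrf2 and misfolded protein through the heat shock and endoplasmic reticulum (ER) stress programmes.

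The WT-CS libraries held 11666879 to 14759183 counts and the RAGE-CS libraries 12501103 to 19975073, a difference of means that a 2-sided exact permutation test did not separate (p = 0.514; the smallest p that the 70 splits allow is 0.0286). The 22 AM marker genes summed to 29415 to 33666 CPM in WT-CS and to 30402 to 34421 CPM in RAGE-CS, ranges that overlapped and that were high in all 8 libraries. Replicate 0 of each group stood apart from its fellows. The chi-square per degree of freedom between replicate 0 and another WT-CS library was 17.5 to 20.3, against 6.92 to 10.1 among the other WT-CS libraries. The same measure was 14.2 to 17.1 for RAGE-CS replicate 0 and 5.60 to 6.28 among the others. WT-CS replicate 0 also held 11 genes at more than 8 times their level in each of the other 7 libraries, and 0 genes did so in any other library. These were led by secretory products of glands and airways, such as Sbpl at 1757 CPM (8.04 CPM or less elsewhere) and the iron-binding protein gene Ltf at 2881 CPM (8.69 to 36.5 CPM elsewhere). In bulk libraries, fewer cells of a type and less RNA per cell cannot be told apart, which holds for each difference below.

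Of 13220 genes tested, 291 (2.2%) differed between WT-CS and RAGE-CS by at least 1.5-fold at an adjusted p under 0.05 (edgeR's quasi-likelihood test, Benjamini-Hochberg adjustment over all genes tested). The genes higher in RAGE null AM, 192 of them (1.45%), outnumbered those higher in WT AM, 99 (0.749%). The median difference was -1.43 on the log2 scale (WT minus RAGE null) among the former and 1.03 among the latter, and 0.001 over all genes tested. Of the 291 genes, 180 differed at least 2-fold and 63 at least 4-fold, and 264 were annotated as protein coding. The 2 groups of CPM values did not overlap for 261 of the 291 genes, where 12.4% of all genes tested showed no overlap. When each of the 8 libraries was left out in turn, 130 of the 291 genes passed every time, of which 42 favoured WT and 88 favoured RAGE null. Without both replicate 0 libraries 164 of them passed, a setting chosen after seeing the data, and DESeq2, which called 348 genes in all (2.63%), called 281 of the 291. At an unadjusted p under 0.05, 2487 genes (18.8%) differed.

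**Figure D1:**
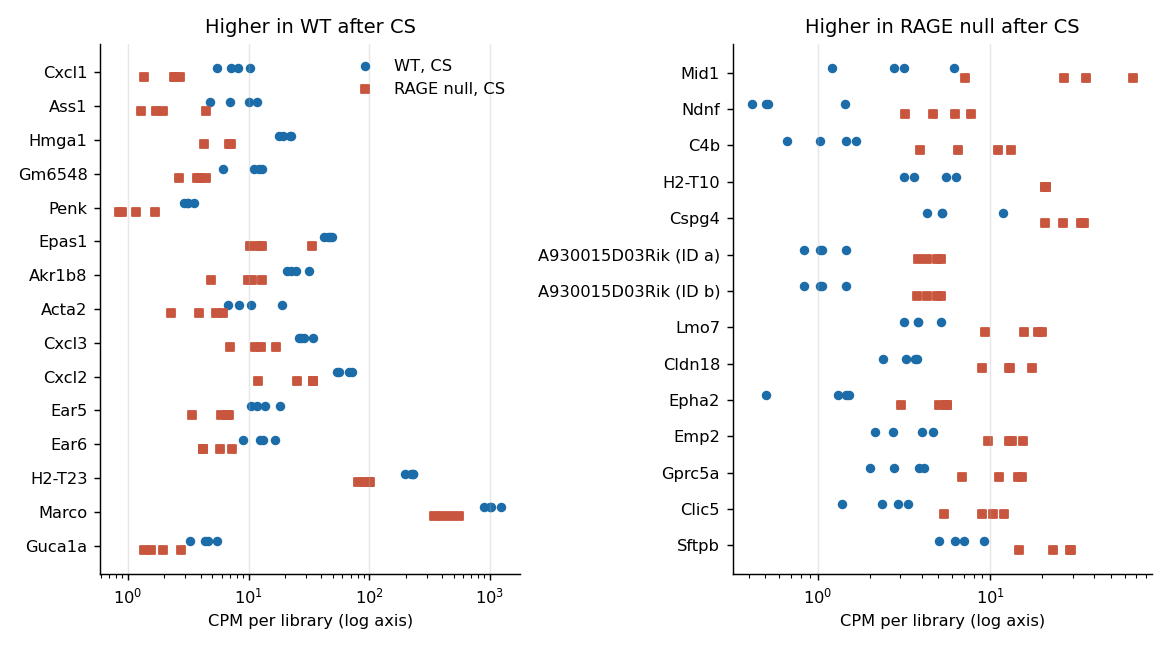
CPM in the 8 libraries of 7-day CS for genes among those with the largest differences in each direction, drawn on a log axis with circles for WT-CS and squares for RAGE-CS. For these genes, chosen because their ranges did not overlap, the points of 1 genotype lie to 1 side, as for Mid1 at 1.22 to 6.20 CPM in WT-CS and 7.11 to 67.2 CPM in RAGE-CS.

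Ager itself was read at a low level in both genotypes. It stood at 4.38, 7.45, 5.56 and 6.79 CPM in WT-CS replicates 0 to 3 and at 5.04, 4.51, 4.50 and 4.02 CPM in RAGE-CS. The groups overlapped through WT-CS replicate 0, and the fitted difference of 0.41 (SE 0.17) did not pass the test (edgeR adjusted p = 0.194). A count per gene does not say which exons were read, so the level of Ager checks no label and genotype was taken from the labels. Of the 13 genes tested for RAGE and its ligands, 0 were called (3 were higher in WT and 1 in RAGE null at an unadjusted p under 0.05) and their median difference was 0.10. S100a1 differed by 0.33 (adjusted p = 0.0831) and S100a4 by 0.51 (adjusted p = 0.0951), neither past the threshold.

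Chromosome 17, which carries Ager and the major histocompatibility complex, held the highest share of called genes of any chromosome. Within 5 Mb of Ager, 18 of 194 genes tested were called (9.28%), 8 higher in WT AM and 10 in RAGE null AM, against 27 of 519 (5.2%) on the rest of chromosome 17 and 246 of 12507 (1.97%) on the other chromosomes. Of the 18 genes, 13 were also called in the same direction in unexposed controls of the same week and 15 after 4 months of CS. H2-T10, a nonclassical class I gene, stood at 5.50, 3.18, 3.61 and 6.33 CPM in WT-CS and at 20.6, 20.8, 21.1 and 21.1 CPM in RAGE-CS. Every RAGE-CS library was far above every WT-CS library, and the difference was -2.17 (SE 0.16, adjusted p = 5.96e-07). H2-T23, which encodes the class I molecule that presents signal peptides to natural killer cells, went the other way, at 229, 196, 220 and 231 CPM in WT-CS and 81.4, 101, 99.2 and 91.8 CPM in RAGE-CS. All 4 WT libraries were above all 4 RAGE null libraries, and the difference was 1.23 (SE 0.10, adjusted p = 2.04e-06). H2-M3, which presents formylated peptides, was also higher in WT (34.5 to 39.5 against 17.7 to 20.9 CPM), as was H2-T22 (47.8 to 56.9 against 30.3 to 34.4 CPM, a difference of 0.72). H2-T10 and H2-T22 share stretches of sequence, and 34.5% of the 50-base windows of H2-T22 transcripts also occur in transcripts of another gene. Their summed level overlapped between the groups, at 51.0 to 63.2 CPM in WT-CS and 51.4 to 55.2 CPM in RAGE-CS, so the difference of each gene on its own is uncertain.

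Glo1, the glyoxalase that removes the glycating agent methylglyoxal, differed with little spread in either group. It stood at 20.8, 22.1, 21.7 and 19.4 CPM in WT-CS and at 47.9, 44.3, 41.7 and 46.1 CPM in RAGE-CS. The RAGE null libraries were all higher, by 1.10 on the log2 scale (-1.10, SE 0.07, adjusted p = 1.9e-07), and the difference was -1.26 in the controls and -1.20 after 4 months of CS. The complement gene C4b, near Ager, was at 1.03, 0.670, 1.46 and 1.68 CPM in WT-CS and 11.1, 13.2, 3.90 and 6.49 CPM in RAGE-CS. It was higher in every RAGE null library (-2.82, SE 0.43, adjusted p = 0.00156), although 34.6% of its 50-base windows are shared with another gene. Rnf5, a ubiquitin ligase of the ER next to Ager, was at 47.4 to 68.1 CPM in WT-CS and 89.7 to 99.7 CPM in RAGE-CS (-0.72, adjusted p = 0.000258). Tnf, which also lies in the 5 Mb window, was at 52.1, 35.8, 31.9 and 43.6 CPM in WT-CS and 16.5, 19.0, 38.1 and 20.9 CPM in RAGE-CS. It was higher in WT by 0.79 (SE 0.21, adjusted p = 0.041) with an overlap through RAGE-CS replicate 2, and the call was lost without any of 6 of the 8 libraries (adjusted p up to 0.192 over the settings that lost it). Emilin2, a matrix glycoprotein gene farther along chromosome 17 that was chosen after its values were seen, was at 77.1 to 96.3 CPM in WT-CS and 256 to 306 CPM in RAGE-CS (-1.76, SE 0.09, adjusted p = 1.41e-08).

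**Figure D2:**
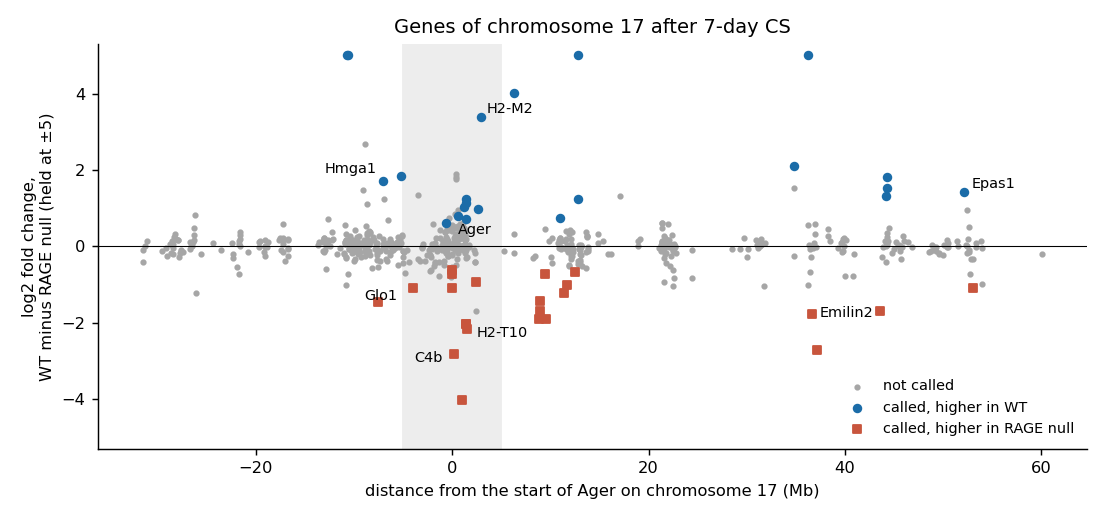
Fitted log2 difference between WT-CS and RAGE-CS (vertical axis, positive where WT is higher) of each gene tested on chromosome 17, against its distance from Ager in Mb (horizontal axis), with called genes marked. Called genes lie on both sides of 0 and cluster around Ager, where 18 of 194 genes within 5 Mb were called.

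Hmga1, which encodes an architectural protein that binds AT-rich DNA, lies outside the 5 Mb window, at chr17:27556620-27563674 (mm10). It was at 19.3, 17.9, 22.2 and 22.5 CPM in WT-CS and 4.24, 6.92, 7.06 and 7.18 CPM in RAGE-CS. Every WT library was above every RAGE null library (1.71, SE 0.15, adjusted p = 3.3e-06), and the difference was 2.13 in the controls and 2.09 after 4 months of CS. Of its 50-base transcript windows 55.0% also occur elsewhere among the annotated transcripts, and the authors discarded reads with more than 1 alignment location, so the size of this difference is uncertain. Glo1 shares 397 windows with the pseudogene Gm13443 on chromosome 2, which was chosen after its values were seen and was also higher in RAGE null AM (0.335 to 0.688 against 2.32 to 3.14 CPM, -2.61). The sum of Glo1 and Gm13443 was 19.8 to 22.4 CPM in WT-CS and 44.2 to 51.0 CPM in RAGE-CS, again without overlap.

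Chemokine genes were called mostly on the WT side. Of 30 cytokine and chemokine genes tested, 8 were called higher in WT AM and 1 in RAGE null AM (30.0%, against 2.2% of all genes), with a median difference of 0.39. Cxcl1, Cxcl2 and Cxcl3 encode the ligands of CXCR2 that draw neutrophils, and their promoters are known NF-kB targets. The stretch just before each start site is shown with matches to an NF-kB motif (GGG, then any 2 bases, then TTTCC, read on both strands) in capitals (RefSeq, GRCm38.p6).
Cxcl1 (chr5:90891125-90891244, plus strand): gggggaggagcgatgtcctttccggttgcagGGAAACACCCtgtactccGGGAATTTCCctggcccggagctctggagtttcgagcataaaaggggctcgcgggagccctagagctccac
Cxcl2 (chr5:90903779-90903898, plus strand): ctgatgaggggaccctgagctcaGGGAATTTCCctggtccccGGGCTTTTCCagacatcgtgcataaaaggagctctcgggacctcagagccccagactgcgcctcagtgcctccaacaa
Cxcl3 (chr5:90785981-90786100, plus strand): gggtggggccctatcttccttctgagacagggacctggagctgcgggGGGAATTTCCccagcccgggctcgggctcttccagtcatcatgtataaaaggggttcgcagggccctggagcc
Cxcl1 and Cxcl2 hold 2 matches each and Cxcl3 holds 1, where 242 of 32851 RefSeq promoters (0.737%) have a match in this window of 120 bases. The windows of Tnf, Ccl3, Ccl22 and Cxcl14 have 0 matches, and that of the scavenger receptor gene Marco has 1. A match is a description of these letters and not a measure of binding.

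Cxcl1 was at 8.17, 10.2, 5.49 and 7.09 CPM in WT-CS and 1.36, 2.41, 2.48 and 2.70 CPM in RAGE-CS. Each WT library was above each RAGE null library, and the difference was 1.81 (SE 0.32, adjusted p = 0.00394). Cxcl2 was at 68.3, 72.4, 56.1 and 54.2 CPM in WT-CS and 12.004, 34.4, 25.1 and 34.3 CPM in RAGE-CS (1.26, SE 0.33, adjusted p = 0.0385). Cxcl3 was at 34.0, 28.7, 26.3 and 27.4 CPM in WT-CS and 7.06, 12.6, 11.4 and 16.8 CPM in RAGE-CS (1.30, SE 0.35, adjusted p = 0.0442). For both, the WT libraries were all higher and RAGE-CS replicate 0 was the lowest of the 8. Ccl3, a chemokine that recruits monocytes and lymphocytes, was at 22.2, 24.7, 25.2 and 36.9 CPM in WT-CS and 9.68, 13.4, 15.1 and 16.8 CPM in RAGE-CS, again without overlap (1.0, SE 0.18, adjusted p = 0.00557). Il15, a growth factor for natural killer cells (0.62), was likewise higher in WT. So was Ccl4 (1.06), the neighbour of Ccl3, which was chosen after its values were seen. Ccl4 lost its call when any 1 of 6 of the 8 libraries was left out (adjusted p up to 0.0909). Cxcl14, an epithelial and macrophage chemokine, was the exception, at 5.76, 4.86, 5.97 and 6.71 CPM in WT-CS and 12.8, 13.1, 11.03 and 15.9 CPM in RAGE-CS. All RAGE null libraries were above all WT libraries for Cxcl14 (-1.18, SE 0.17, adjusted p = 0.000812).

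Other genes of the NF-kB list followed in part. Of 38 tested, 3 were called higher in WT AM and 1 in RAGE null AM (10.5%), and the median difference was 0.22. The costimulatory ligand gene Cd80 was at 29.3 to 35.2 CPM in WT-CS and 18.5 to 22.2 CPM in RAGE-CS (0.68, adjusted p = 0.000258), the inhibitor gene Nfkbie differed by 0.75 and the survival gene Ier3 by 1.03. Ptgs2, which encodes the inducible cyclooxygenase, was higher in RAGE null AM, at 0.153 to 0.903 against 1.29 to 2.67 CPM (-1.75, adjusted p = 0.0204). Among 23 immediate early genes, Atf3 (0.66) and Egr1 (0.86) were higher in WT and the phosphatase gene Dusp5 was higher in RAGE null (-0.70), with a median of 0.01. Without RAGE-CS replicate 0 or WT-CS replicate 3, 0 immediate early genes were called higher in WT, Egr1 also lost its call without RAGE-CS replicate 1 (adjusted p up to 0.102 over its 4 lost settings), and Ier3 and Ptgs2 lost theirs in 4 settings each. The number of chemokine and cytokine genes called higher in WT fell to 3 without RAGE-CS replicate 0, WT-CS replicate 1 or WT-CS replicate 3 and to 4 without WT-CS replicate 0, RAGE-CS replicate 1 or RAGE-CS replicate 2. The median of that list fell to 0.17 without WT-CS replicate 3 and to 0.07 with at least 20 counts in every library. Cxcl2 lost its call in 7 and Cxcl3 in 10 of 22 alternative settings (adjusted p up to 0.111 and 0.165 there), whereas Cxcl1 and Ccl3 kept theirs in all 22.

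Several macrophage surface and enzyme genes differed by genotype. Marco, a scavenger receptor for particles and bacteria, was at 889, 992, 1013 and 1231 CPM in WT-CS and 468, 552, 395 and 344 CPM in RAGE-CS. The lowest WT library was above the highest RAGE null library (1.23, SE 0.19, adjusted p = 0.0015), and Marco was the only 1 of the 22 AM marker genes to be called. The marker list itself leaned the other way, with a median difference of -0.14 and a positive difference for 8 of the 22 genes. Before adjustment, edgeR's p fell below 0.05 for 3 markers on the WT side and for 8 on the RAGE null side. Ctsk, the lysosomal protease cathepsin K, was at 1775, 1903, 1833 and 2019 CPM in WT-CS and 971, 1004, 961 and 950 CPM in RAGE-CS. The values were tight within both groups and did not overlap (0.95, SE 0.10, adjusted p = 6.48e-05). The complement receptor gene C5ar1 was lower in WT (174 to 228 against 318 to 365 CPM, -0.80), as was the phospholipid transfer protein gene Pltp (127 to 190 against 230 to 302 CPM, -0.74). Epas1, which encodes HIF-2 alpha, was at 42.0, 47.3, 45.2 and 49.1 CPM in WT-CS and 10.2, 33.9, 12.2 and 12.9 CPM in RAGE-CS. It was higher in WT (1.43, SE 0.32, adjusted p = 0.0185), with RAGE-CS replicate 1 well above its 3 fellows, and the call was lost when RAGE-CS replicate 0, 2 or 3 was left out (adjusted p of 0.0598, 0.0637 and 0.0573). The aldo-keto reductase gene Akr1b8 (1.41) and the eosinophil-associated ribonuclease genes Ear5 (1.26) and Ear6 (1.25) were higher in WT, although Ear5 lost its call in 8 settings and Ear6 in 6. Per2, a repressor of the circadian clock, was at 48.6, 44.8, 44.7 and 50.7 CPM in WT-CS and 72.7, 79.0, 74.2 and 77.4 CPM in RAGE-CS, with no overlap (-0.68, SE 0.10, adjusted p = 0.00123). In the controls Per2 was far lower in both genotypes, at 14.6 to 20.3 CPM in WT and 14.5 to 20.9 CPM in RAGE null.

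The Nrf2 antioxidant genes leaned to WT AM without reaching the threshold one by one. Of 44 tested, 41 had a positive difference, 25 were higher in WT and 1 in RAGE null at an unadjusted p under 0.05 (8.82% and 9.99% of all genes), and 1 was called (2.27%, against 2.2% of all genes). The median difference was 0.32, and 0.25 without RAGE-CS replicate 0, the lowest of the 8 libraries at 31 of the 44 genes. The called gene was Ephx1, the microsomal epoxide hydrolase, at 40.3, 34.2, 38.6 and 40.8 CPM in WT-CS and 17.6, 24.4, 21.9 and 23.6 CPM in RAGE-CS. The groups were well apart (0.82, SE 0.10, adjusted p = 0.000137). Txnrd1, which encodes the cytosolic thioredoxin reductase, was at 644, 557, 570 and 672 CPM in WT-CS and 212, 491, 399 and 472 CPM in RAGE-CS. All WT values were above all RAGE null values, but the difference of 0.64 (SE 0.21) did not pass the test (adjusted p = 0.104). Hmox1, heme oxygenase 1, lies outside the rule for named genes given below. It was at 2721, 2450, 2959 and 3665 CPM in WT-CS and 315, 2061, 1170 and 1917 CPM in RAGE-CS (1.11, adjusted p = 0.194). Nqo1, a quinone reductase chosen after its values were seen, ranged from 17.5 to 27.0 CPM in WT-CS and was at 2.17, 19.2, 12.7 and 15.7 CPM in RAGE-CS (0.86, adjusted p = 0.348). For Txnrd1, Hmox1 and Nqo1 alike, RAGE-CS replicate 0 was the lowest library.

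Few genes of the protein folding programmes passed the test. Of 39 ER chaperone and unfolded protein response genes, 0 were called by edgeR, with 1 called when RAGE-CS replicate 0 or RAGE-CS replicate 2 was left out. The list still leaned to WT: 33 of the 39 had a positive difference and the median difference was 0.17. At an unadjusted p under 0.05, 15 were higher in WT and 1 in RAGE null (8.82% and 9.99% of all genes). Derl2, which helps misfolded protein out of the ER, differed by 0.26 (adjusted p = 0.0307), short of 1.5-fold. The sensor genes Eif2ak3 (0.01, adjusted p = 0.95) and Ern1 (-0.11, adjusted p = 0.393) and the chaperone gene Pdia3 (0.14, adjusted p = 0.437) did not pass the test. Of 29 cytosolic heat shock genes, 1 was called, the small heat shock protein gene Hspb8, at 0.754 to 1.72 CPM in WT-CS and 2.49 to 4.17 CPM in RAGE-CS (-1.53, adjusted p = 0.00685). Hsph1, a nucleotide exchange factor for HSP70, was at 169, 289, 217 and 285 CPM in WT-CS and 138, 129, 148 and 150 CPM in RAGE-CS. Its WT values were all above its RAGE null values, yet the difference of 0.76 (SE 0.27) missed the threshold (adjusted p = 0.125).

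**Figure D3:**
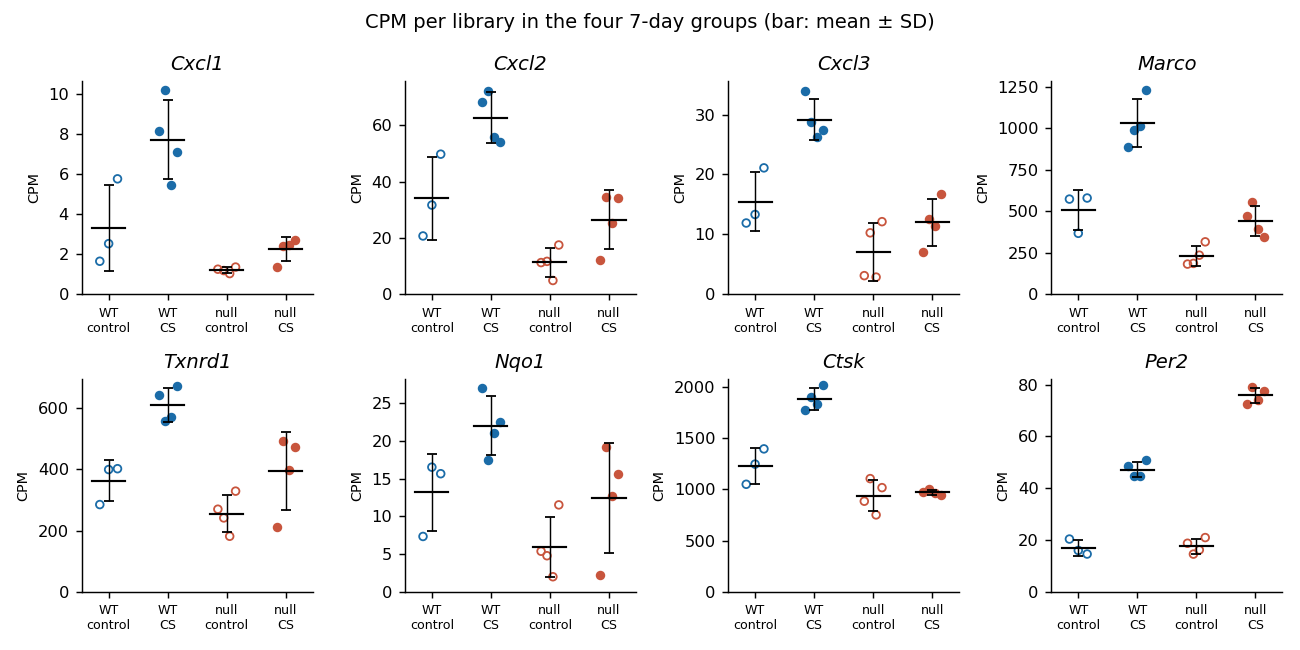
CPM of 8 genes in each 7-day library (vertical axes, from 0), grouped as WT controls, WT-CS, RAGE null controls and RAGE-CS, with points for libraries and bars for the mean ± SD. Ctsk and Per2 are tight within the groups, whereas Txnrd1 and Nqo1 are lowest within RAGE-CS in replicate 0, at 212 and 2.17 CPM.

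Markers of alveolar epithelium and genes of matrix were called on the RAGE null side. Of 19 type 1 alveolar cell markers, 9 were called higher in RAGE null and 0 higher in WT (47.4%), with a median difference of -0.81. Of 15 type 2 cell markers 4 were called, all higher in RAGE null (26.7%, median -1.05), and of 24 growth factor and matrix genes 7 were called, all higher in RAGE null (29.2%, median -0.51). Sftpc, the type 2 cell surfactant protein C, was at 30.5, 44.8, 27.9 and 30.4 CPM in WT-CS and 126, 59.4, 110 and 135 CPM in RAGE-CS. Each RAGE null library was above each WT library (-1.69, SE 0.32, adjusted p = 0.00709), with RAGE-CS replicate 1 the lowest of its group. Sftpb, surfactant protein B, was at 6.28, 9.13, 5.07 and 7.02 CPM in WT-CS and 29.3, 14.6, 23.04 and 28.8 CPM in RAGE-CS (-1.81, SE 0.25, adjusted p = 0.000712), and replicate 1 was again the lowest RAGE null library. The tight junction gene Cldn18 (-2.0), the type 1 cell membrane genes Emp2 (-1.94) and Clic5 (-1.90), and Gprc5a (-1.91) were higher in RAGE null as well. Hopx, a marker of type 1 cells, was at 7.57 to 10.2 CPM in WT-CS and 13.4 to 15.9 CPM in RAGE-CS (-0.81). Among the secreted factors, Hbegf, an epidermal growth factor receptor ligand, was at 0.516, 0.0837, 0.278 and 0.305 CPM in WT-CS and 2.32, 1.77, 2.93 and 3.09 CPM in RAGE-CS. It was near 0 in every WT library and above that in every RAGE null library (-3.07, SE 0.35, adjusted p = 9.97e-05). The matrix genes Sparc (3.40 to 7.03 against 10.8 to 20.9 CPM, -1.79) and Col4a1 (0.834 to 2.32 against 2.41 to 6.25 CPM, -1.79) were also higher in RAGE null.

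These markers were present in both genotypes. Summed over the list, type 1 markers ranged from 259 to 327 CPM in WT-CS and from 311 to 397 CPM in RAGE-CS, and type 2 markers from 251 to 287 CPM and from 314 to 467 CPM. The 19 general epithelial markers summed to 779 to 890 CPM and 1014 to 1213 CPM. Their part in the other differences was not tested. Some large differences lay outside these lists. Mid1, a ubiquitin ligase on microtubules, was at 3.18, 6.20, 2.78 and 1.22 CPM in WT-CS and 7.11, 67.2, 26.8 and 35.7 CPM in RAGE-CS (-3.35, SE 0.62, adjusted p = 0.00595). It was higher in every RAGE null library, with a wide spread among them. Cspg4, a proteoglycan (-2.11), and Epha2, an ephrin receptor (-2.0), were higher in RAGE null too. With a filter of at least 20 counts in every library, which removes many of the low genes of these lists, 1 growth factor or matrix gene was left called, the type 2 median was -0.55 and the genes called higher in RAGE null fell from 192 to 86.

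Markers of other cell types were called in smaller numbers. Of 11 dendritic cell genes tested 3 were called higher in WT (27.3%, median 0.62). Clec9a, a receptor of conventional dendritic cells for dead cells, was at 9.59 to 12.3 CPM in WT-CS and 4.79 to 6.23 CPM in RAGE-CS (1.05, adjusted p = 0.00264). Flt3 (1.34) and Cd209a (1.91) were called too but lost their calls in 9 and 11 settings. Of 18 club and ciliated cell genes 3 were called higher in WT AM and 1 in RAGE null AM (22.2%, against 2.2% of all genes, median 0.82). Without WT-CS replicate 0, the highest of the 8 libraries at 15 of the 18 genes, 1 was called, higher in WT (median 0.47). The number called higher in WT was 0 without RAGE-CS replicate 1, the lowest library at 12 of the 18, and 7 without WT-CS replicate 3. In the controls the median of this list was -0.63, with 4 genes called higher in RAGE null and 0 in WT. The 4 gland genes tested summed to 18.2 to 5267 CPM in WT-CS and 11.5 to 31.2 CPM in RAGE-CS, with 3 called, and 0 called without WT-CS replicate 0. Ltf, the called neutrophil list gene, rested on the same library.

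Other lists held 0 called genes in edgeR's test. These were the 45 interferon-stimulated genes (median 0.13; 5 higher in WT and 1 in RAGE null at an unadjusted p under 0.05), the 10 class II genes (median 0.43; 0 and 1), the 21 cholesterol synthesis genes (median 0.18; 8 and 1), the 17 metalloproteinase and inhibitor genes (median -0.02; 2 and 3), the 33 cell cycle genes (median -0.02; 1 and 0) and the 10 aryl hydrocarbon receptor targets (median 0.18; 2 and 0). The 12 monocyte and interstitial macrophage markers (median -0.17; 1 and 1), the 6 T and NK cell markers (median 0.23; 0 and 0), the 2 B cell markers (median 0.24; 0 and 0) and the 9 RNA quality genes (median 0.07; 1 and 1) did the same. DESeq2 called 1 of the monocyte and interstitial macrophage markers and 0 genes of the other 9 lists. Of 18 class I and antigen processing genes, 4 were called higher in WT AM and 1 in RAGE null AM (27.8%), the chromosome 17 genes described above among them. The remaining lists held 1 or 2 calls each: 1 of 16 clock genes (Per2), 1 in each direction of 25 lipid handling genes (Scd2 and Pltp), 1 of 30 lysosomal genes (Ctsk), 2 of 30 scavenger and lectin receptors, both higher in WT, 2 of 15 complement genes (C4b and C5ar1), 1 of 5 endothelial and mesenchymal genes and 1 of 9 red cell and platelet genes (Pf4, a platelet chemokine, 1.08).

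**Figure D4:**
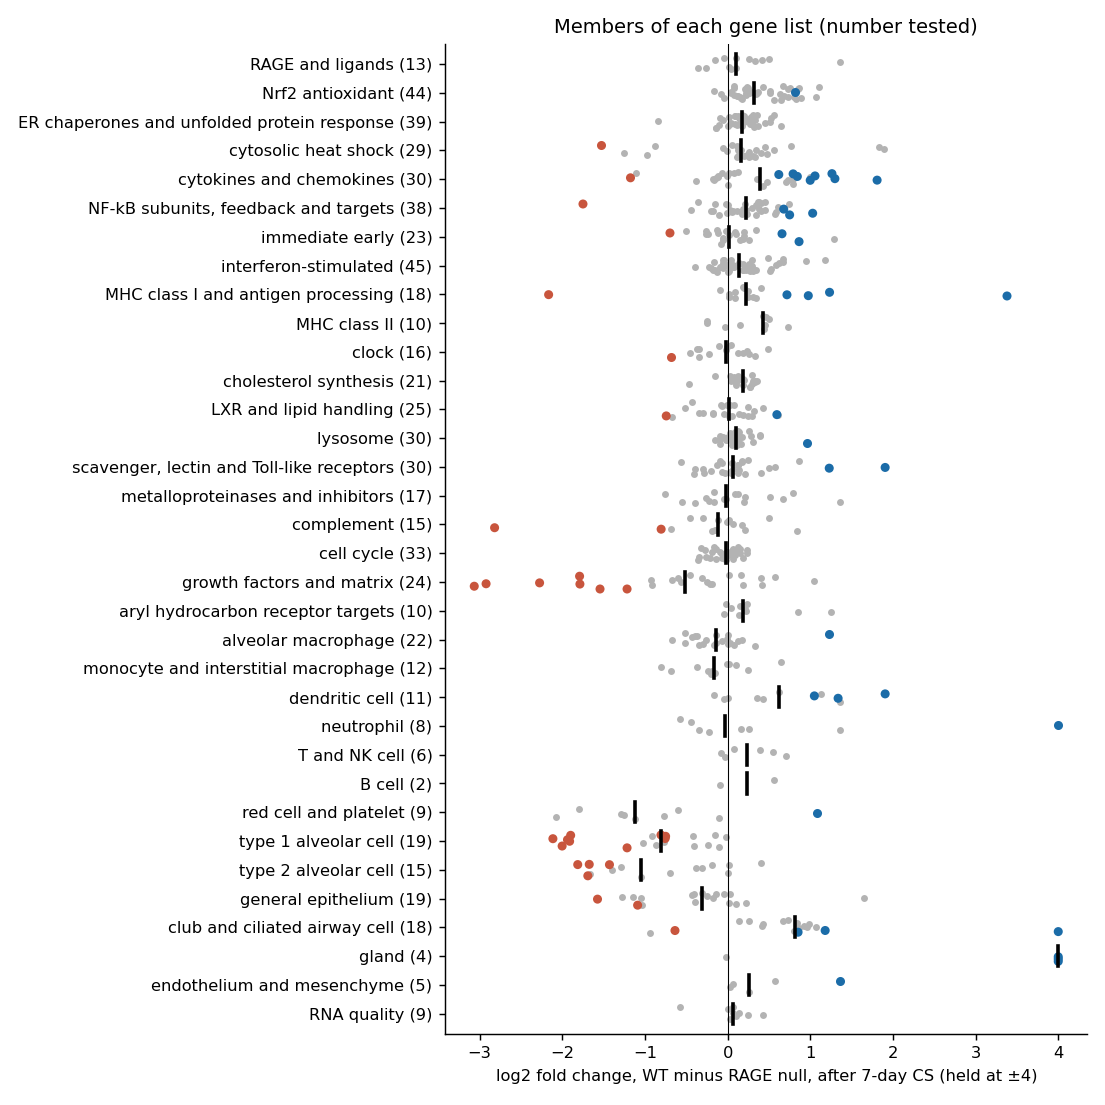
Fitted log2 difference between WT-CS and RAGE-CS (horizontal axis, positive where WT is higher) of each tested member of the gene lists, with called members marked and list medians drawn. The medians of the type 1 (-0.81) and type 2 (-1.05) alveolar lists lie to the RAGE null side, and those of the club and ciliated cell list (0.82) and the chemokines (0.39) to the WT side.

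Most of these genes differed in the same direction without smoke. In the 7-day control mice, which share no library with the CS comparison, 632 of 13220 genes were called between WT (3 libraries) and RAGE null (4 libraries), or 4.78% (1.77% higher in WT, 3.01% in RAGE null). Of the 291 genes called after CS, 269 (92.4%) had the same direction in controls, against 58.2% of all genes tested, and 188 were called there in that direction, which is 64.6% of the 291 and 29.7% of the 632. A total of 0 were called in the opposite direction. The share also called in controls was 142 of 192 for genes higher in RAGE null and 46 of 99 for genes higher in WT. The type 1 and type 2 markers had control medians of -1.20 and -1.93, the chemokines one of 0.08, the Nrf2 genes one of 0.16 and the ER genes one of -0.28. Of the chemokine and cytokine list, 3 genes were called higher in WT controls and 1 in RAGE null controls. The sum of Cxcl1, Cxcl2 and Cxcl3 was 34.2 to 76.7 CPM in WT controls and 8.68 to 30.9 CPM in RAGE null controls, without overlap. After CS that sum was 87.9 to 111 CPM in WT and 20.4 to 53.8 CPM in RAGE null.

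The test of whether the genotype difference after CS differed from that in controls called 0 genes with edgeR (2096 genes, 15.9%, at an unadjusted p under 0.05), and DESeq2 called 114 (0.862%). Without RAGE null control replicate 0 edgeR called 119, without WT control replicate 2 it called 68, and without RAGE-CS replicate 0 it called 2. Ctsk differed by 0.39 in controls and 0.95 after CS (interaction adjusted p = 0.158). Per2 differed by -0.06 in controls and -0.68 after CS (interaction adjusted p = 0.146). A gene called after CS and not in controls is therefore not shown by edgeR to differ between the exposures.

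**Figure D5:**
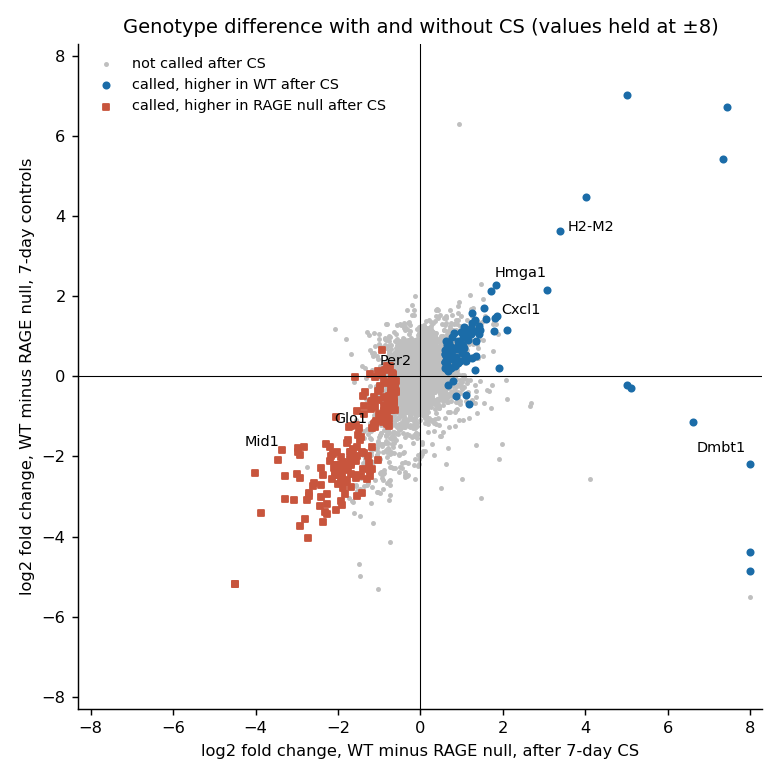
Fitted log2 difference between WT and RAGE null in the 7-day controls (vertical axis) against that after 7 days of CS (horizontal axis), both held at ±8, with 1 point per gene and the genes called after CS marked. Of the 291 called genes, 269 have the same sign on both axes.

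After 4 months of CS, in other mice, 644 of 13045 genes were called between the genotypes (4.94%). Of the 291 genes of the 7-day comparison 243 were tested there, 226 of them (93.0%) had the same direction, against 66.8% of all genes, and 103 were called in that direction (35.4% of the 291 and 15.99% of the 644), with 3 called in the opposite one. A set of 55 genes was called in the same direction in all 4 genotype comparisons, with CS or without at either time (the last, 4-month controls, had 6.97% of genes called), and 25 of these lie on chromosome 17, 12 of them within 5 Mb of Ager. Another 55 were called after 7 days of CS and in no other comparison. Genes not tested at 4 months counted as not called there, and a missing call is not a test of a difference. Epas1 differed by 3.07, Marco by 1.54 and Cxcl1 by 0.91 (adjusted p = 0.154) after 4 months. For Epas1 (edgeR adjusted p = 0.0691), Marco and Cxcl1, the change from the 7-day difference was not called. The difference between the times was called for 74 genes (0.552%; 1224 at an unadjusted p under 0.05), of which 5 were among the 291, and Ager was 1 of the 74. Ager was lower in WT than in RAGE null after 4 months (0.644 to 1.99 against 3.17 to 4.03 CPM, -1.34), and this differed from the 0.41 of the 7-day comparison by 1.76 (adjusted p = 0.00198).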

How the data were processed

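RNA of lavaged AM from 31 mice was sequenced. The authors used Novoalign and mm10, discarded reads with more than 4 mismatches or more than 1 genomic placement, and deposited counts per gene; whether counting used strand is not given in the sources used here, so overlapping genes (70 of the 291) are uncertain. The table lists 13521 genes, each with at least 20 counts in some library. Its 31 FPKM columns and 16 columns of the authors' own comparisons (log2 ratios and false discovery rates) were not used.

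Deposited counts of the 15 libraries of the 7-day part were fitted together with 1 coefficient per group by edgeR (version 4.0.16, R 4.3.3; TMM factors, filterByExpr set to 10 counts and 15 in total, quasi-likelihood F test, 2-sided), and calls needed 1.5-fold or more with adjusted p below 0.05. Fold changes are log2 of WT over RAGE null. The SE given with a fold change was derived from the test, as its absolute value divided by the square root of the F statistic. The labels do not say whether animals shared a cage or a day, so p-values measure the spread between these mice. Alternatives were DESeq2 (version 1.42.0), its size factors, other filters, a fit of the 2 groups alone, a replicate block and leaving out each library. The procedure was tested on simulated data. Promoter letters are from RefSeq and transcript sequences from the reference annotation of the same build.

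Named genes were Ager, 6 genes the study also measured by another method, the 15 largest non-overlapping differences in each direction among genes averaging log2 CPM 1 or more, up to 4 called genes per list (the 2 with the smallest p where none was called), and up to 10 called genes within 5 Mb of Ager. Members and lists were chosen with earlier results of these data known. Not every gene that meets the rule is reported here.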

Additional observations from a re-analysis of the deposited data

Results flagged for a closer look

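In 220 groups of 4 libraries (110 named genes in WT-CS and RAGE-CS), 13 had 1 library far from its fellows by Dixon's criterion for 4 values, where chance marks about 1 group in 20. In RAGE-CS replicate 0, Cxcl1 was at 1.36 CPM (others 2.41 to 2.70) and Hmga1 at 4.24 CPM (others 6.92 to 7.18). In RAGE-CS replicate 1, Col4a1 was at 2.41 CPM (others 5.95 to 6.25), Krt7 at 3.06 CPM (others 6.95 to 7.87) and the immunoglobulin gene Ighm at 0 CPM (others 0.300 to 0.309). H2-M3 was at 20.9 CPM in RAGE-CS replicate 2 (others 17.7 to 18.2). In WT-CS replicate 3, Ndnf was at 1.45 CPM (others 0.417 to 0.516), H2-DMb2 at 8.01 CPM (others 11.6 to 11.9), the desaturase gene Scd2 at 152 CPM (others 195 to 199) and Emilin2 at 96.3 CPM (others 77.1 to 78.1). Epha2 was at 0.502 CPM in WT-CS replicate 1 (others 1.32 to 1.53), S100a4 at 18.1 CPM in WT-CS replicate 2 (others 15.04 to 15.3) and Derl2 at 110 CPM in WT-CS replicate 0 (others 122 to 124).

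For 4 named genes the genotype difference after 7 days of CS differed from that after 4 months (edgeR, adjusted over 13408 genes). The sign of the fitted difference turned for each of the 4. For Ager it was 0.41 at 7 days (not past the threshold, adjusted p = 0.194) and -1.34 at 4 months, so that the 7-day minus the 4-month value was 1.76 (adjusted p = 0.00198). For Stard4, a cholesterol carrier gene, it was 0.33 at 7 days (not past the threshold, adjusted p = 0.0543) and -0.56 at 4 months, which gave 0.89 (adjusted p = 0.00047). The same quantity was -3.43 for Ccdc109b (adjusted p = 0.000103) and -2.38 for Pla2g12a (adjusted p = 0.000761).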

How the results depend on the processing

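No named gene reversed its direction in any of 22 settings, and 47 of 78 named calls passed in all of those that gave a value. Genes called after 7-day CS (291; 99 on the WT side and 192 on the RAGE null side) numbered 588 (231 and 357) with no fold threshold, 155 (86 of them on the RAGE null side) with at least 20 counts in every library, and 178 to 305 (60 to 113 and 108 to 220) with 1 library left out; the lowest counts were 192 without RAGE-CS replicate 0 and 178 without WT-CS replicate 1. Without both libraries that stand apart, added after seeing the data, 61 were higher in WT. Calls within 5 Mb of Ager (18) were 26 with no fold threshold, 12 with at least 20 counts in every library and 12 to 21 with 1 library left out. Calls in the 7-day controls (632) were 1307 with no fold threshold, 303 with at least 20 counts, and 241 to 830 with 1 library left out. The interaction (0) gave 114 by DESeq2, 0 to 119 with 1 library left out and 1 without both libraries that stand apart. Calls after 4-month CS (644) were 1414 with no fold threshold, 400 with at least 20 counts and 458 to 763 with 1 library left out. The difference between times (74) gave 132 by DESeq2, 38 with at least 20 counts and 45 to 103 with 1 library left out. Libraries with the same replicate number deviated together no more than others (mean correlation 0.0104 against -0.0039), and with a replicate block 293 genes were called after 7-day CS, 546 in controls, 0 in the interaction, 657 after 4 months and 72 between times. The causes of these shifts were not tested. Depth limits the low genes: Hbegf was under 1 CPM in every WT-CS library.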

Other observations

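A pair of neighbours on chromosome 3 turned between the times, and both genes were chosen after their values were seen. Ccdc109b, which encodes a subunit of the mitochondrial calcium uniporter (chr3:129914960-129970206, mm10), and Pla2g12a, a secreted phospholipase gene (chr3:129878606-129895821), lie 19.1 kb apart with 1 listed gene between them. Ccdc109b was at 16.4, 6.03, 20.4 and 5.26 CPM in WT-CS and 23.3, 31.6, 33.8 and 37.3 CPM in RAGE-CS at 7 days. All RAGE null values were above all WT values (-1.37, edgeR adjusted p = 0.0288). After 4 months the order was the other way, at 18.1 to 24.2 CPM in WT and 4.14 to 5.81 CPM in RAGE null (2.06). Pla2g12a went from -1.13 (2.09 to 6.32 against 6.81 to 11.05 CPM) to 1.26 (5.796 to 9.11 against 2.92 to 4.19 CPM). The 7-day call of Ccdc109b was lost in 5 of 22 settings and that of Pla2g12a in 12.

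Gm5506, a gene with 85.2% of its 50-base windows shared with other genes, Eno1, the enolase gene, foremost (1395 of 1826 windows), was read in some libraries and nearly absent in others, and was also chosen after its values were seen. At 7 days with CS, Gm5506 was at 4.73, 6.20, 0.0695 and 6.94 CPM in WT and at 0.0504, 0, 0 and 0 CPM in RAGE null, so that WT-CS replicate 2 stood with the RAGE null libraries. At 4 months its level with CS was 0 to 0.103 CPM in WT and 0.131 to 8.15 CPM in RAGE null, and in the controls of that time it was 0 to 9.504 CPM in RAGE null.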
